A study of Mus musculus with 4 samples.

Results

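Intermediate cells of the stria vascularis (SV) were selected from 3 captures of whole cells by the transcripts each barcode held. A barcode was kept when it had at least 200 genes, at least 1% of its UMIs (unique molecular identifiers, the counted molecules) from the nuclear RNA Malat1, at least 0.08% of its UMIs and at least 4 UMIs from the summed genes Met, Pax3, Nrp2 and Pde1c, at least 3 times as many of these as of the marginal genes Lrp2, Kcnq1, Esrrb and Atp13a5, and more of these than of the basal genes Cldn11, Tjp1, Col11a2 and Nr2f2. By this rule 904 of the 3330 deposited cell barcodes were intermediate cells, 118 of 392 in capture 1, 411 of 1358 in capture 2 and 375 of 1580 in capture 3. The SV, an ion-transporting epithelium in the lateral wall of the cochlea, was dissected from inbred CBA/J mice at postnatal day 30, with no treatment and no altered gene, whose sex was not given in the sources used here. Cells were freed with trypsin, each suspension pooled several mice, and libraries were made with the 10x Genomics Chromium 3′ chemistry. A separate suspension of nuclei, released by a detergent, gave 1 further capture of 11057 barcodes. The mice of a pool cannot be told apart, so the capture was the replicate, and p-values measure the spread between 3 captures, which may be partly technical.

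Intermediate cells are the pigmented layer of the SV. They derive from the neural crest, as melanocytes of the skin do, and lie between the marginal cells, which secrete potassium into the endolymph, and the basal cells, which seal the tissue with tight junctions and couple to intermediate cells through gap junctions. Potassium channels in their membrane set up the endocochlear potential, the voltage on which hair cell transduction depends.

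The label was checked against Dct and Cd44, markers that had no part in the selection. Dct (chromosome 14, 118012790 to 118052244, minus strand, in the mm10 build), which encodes the melanin enzyme dopachrome tautomerase, was at 22328, 18612 and 14962 CPM (UMIs of the gene scaled to a total of 1000000 UMIs over the cells of a capture) in captures 1, 2 and 3, against 3569, 4063 and 2973 CPM in marginal cells and 7787, 4101 and 3332 CPM in basal cells selected by the mirrored rules. Cd44 (chromosome 2, 102811141 to 102901665, minus strand), a cell surface receptor for hyaluronan, was at 323, 346 and 383 CPM in intermediate cells, 57.0, 88.6 and 83.1 CPM in marginal cells and 127, 91.5 and 109 CPM in basal cells. For each gene the 3 intermediate values lay above all 6 values of the other groups. Against marginal and basal cells, the log2 fold change was 2.71 ± 0.18 and 2.14 ± 0.17 (SE) for Dct, with an adjusted p of 3.44e-19 and 1.13e-15 in the quasi-likelihood test of edgeR, adjusted over all genes by Benjamini and Hochberg's method. For Cd44 it was 2.44 ± 0.20 and 1.97 ± 0.17, with an edgeR adjusted p of 1.05e-15 and 1.65e-14.

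Intermediate cells made up 31.2% (exact 95% binomial interval 26.6 to 36.2) of the 378 barcodes over 200 genes in capture 1, 30.9% (28.4 to 33.5) of 1329 in capture 2 and 25.3% (23.1 to 27.6) of 1481 in capture 3. These intervals cover counting error only, and the shares depend on the limits of the selection. Marginal cells numbered 83 and basal cells 164, of which capture 1 held 10 and 16. The UMIs of intermediate cells summed to 1114912, 2865401 and 2465355 in captures 1, 2 and 3, and those of marginal cells to 122726, 530213 and 228733, so that values of rare transcripts were more precise in intermediate cells. The median intermediate cell had 8063, 6772 and 6164 UMIs and 2382.5, 1929 and 1878 genes. Each cell thinned to 2000 UMIs, the medians were 842.5, 819 and 816 genes, below the 1048, 958.5 and 998.5 genes of marginal cells and the 932, 948 and 893 genes of basal cells.

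Some barcodes lay close to the limits. The 23 barcodes with 0.08 to 0.10% of UMIs from the 4 intermediate genes had 14987 CPM of Dct, and the 10 barcodes with 0.06 to 0.08%, which were left out, had 12726 CPM. The 169 barcodes with 1 to 2% Malat1 had 12002 CPM of Dct, and the 61 left out at 0.5 to 1% had 10795 CPM. Captures 1 and 2 shared 2 barcode sequences, of which 1 was an intermediate cell in both, captures 2 and 3 shared 6, and captures 1 and 3 shared 0. No doublets were removed for the values given here. The doublet caller Scrublet marked 1, 15 and 20 barcodes of captures 1, 2 and 3, of which 1, 8 and 8 were intermediate cells.

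RNA from other cells was counted in the intermediate cells, and capture 3 stood apart in it. Hemoglobin took a median of 0.017, 0.027 and 0.184% of UMIs per intermediate cell in captures 1, 2 and 3. Genes of cell division summed to a mean of 771 CPM in barcodes with at least 10% hemoglobin, against 4.86 CPM in intermediate cells. These hemoglobin-rich barcodes, erythroid cells that should lack the intermediate transcripts, numbered 0, 13 and 90. Their summed level of Met, Pax3, Nrp2 and Pde1c was 45.3 CPM, against 2053 ± 87.3 CPM (SD, n = 3) in intermediate cells, 404 CPM in marginal cells and 701 CPM in basal cells. Dct was at 182 CPM and Cd44 at 2.16 CPM in the hemoglobin-rich barcodes. How far such carried-over RNA lowered the differences between groups was not tested.

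The genes used in the selection are given as a description only. Met, the receptor for hepatocyte growth factor, was at 1214, 1029.9 and 999.9 CPM in captures 1, 2 and 3, and Nrp2, a co-receptor for semaphorins and vascular endothelial growth factor, was at 741, 781 and 739 CPM. Pax3, a transcription factor of the neural crest, was at 109, 145 and 128 CPM, and the phosphodiesterase gene Pde1c at 78.0, 91.4 and 101 CPM. In marginal cells, where the mirrored limits kept them low, Met was at 206, Nrp2 at 152, Pax3 at 22.3 and Pde1c at 23.6 CPM on average. Since 3′ UMI counts were not scaled by transcript length, levels were compared between cells and not between genes.

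To ask which transcripts set intermediate cells apart, their summed UMIs were compared with those of marginal and of basal cells over 6666 genes. A gene was tested when at least 3 of the summed libraries, of any group, reached 19.1 CPM. A gene that reached this limit only in a group where it is high was bound to differ, so a count over the tested members of a list is a description, and most such members are named below. Against marginal cells 992 genes were higher (14.9% of those tested) and 1103 lower (16.5%) at an adjusted p under 0.05 in edgeR, and against basal cells 1105 were higher (16.6%) and 1158 lower (17.4%). In both comparisons 562 genes were higher (8.43%) and 312 lower (4.68%). Both comparisons use the same intermediate sums. Each group was chosen on its own RNA, so genes that go with the selecting genes in a cell were bound to differ, and the calls describe which genes these were. The median log2 fold change over all genes tested was -0.02 and 0.01 after TMM scaling, which moved it up by 0.37 and 0.22. Without that scaling 615 genes were higher and 2033 lower than in marginal cells, and 700 higher and 1735 lower than in basal cells. In both comparisons 366 were then higher and 704 lower. With the scaling and without capture 2, 359 were higher and 163 lower in both.

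Of 16 genes listed for melanin synthesis and the melanosome, 11 had enough UMIs to be tested, and these were higher than in marginal cells and higher than in basal cells, with a median log2 fold change of 2.24 and 1.62. Of the 11, Gpr143, Mlph, Rab38 and Trpm1 reached the limit for testing only with barcodes with intermediate RNA, where they are high, so their direction was bound to that limit. The other 7 reached it in marginal and basal cells alone. Over all genes tested 8.43% were higher in both comparisons. Tyr (chromosome 7, 87424771 to 87493512, minus strand), the rate-limiting enzyme of melanin synthesis, was at 1186, 944 and 1220.1 CPM in captures 1, 2 and 3, against 228, 211 and 205 CPM in marginal cells and 362, 254 and 296 CPM in basal cells (log2 fold change 2.67 and 2.10). Mlana, a melanosome protein, was at 438, 464 and 460.0 CPM against 81.5, 52.8 and 91.8 CPM in marginal and 198, 90.2 and 97.3 CPM in basal cells (3.02 and 2.18). For both genes the 3 intermediate values lay above all values of the other groups. Gpnmb, a melanosomal glycoprotein, was at 1668, 1576 and 1396 CPM (2.22 and 1.62), and Slc45a2, a transporter of the melanosome membrane, at 984, 758 and 784 CPM (2.24 and 1.58).

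Transcripts for the proteins that tether melanosomes to actin were also higher. Rab27a, the GTPase on the melanosome, was at 79.8, 103 and 103 CPM against 16.3, 22.6 and 13.1 CPM in marginal cells (2.65) and 56.4, 27.6 and 45.3 CPM in basal cells (1.57). Its partners differed in the same direction, with log2 fold changes of 1.71 and 2.23 for the linker Mlph and 1.84 and 1.39 for the motor Myo5a. Rab38, which directs enzymes to melanosomes, had 1.78 and 1.27, and the melanosomal receptor gene Gpr143 had 1.44 and 2.05. Trpm1, a cation channel of melanocytes, rested on 156 UMIs in intermediate, 2 in marginal and 23 in basal cells (0.94 against basal cells). Calls at the edge of the threshold were Gpr143 against marginal cells, which was lost without capture 2 (1.12) and in DESeq2, Rab38 against basal cells, lost without capture 2 (1.05), and Trpm1 against basal cells, lost without capture 1 (0.82) or capture 3 (0.98), in DESeq2, without TMM scaling (0.70), without the block and with Malat1 of at least 2%. DESeq2 called 10 of the 11 genes in each comparison.

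**Figure D1:**
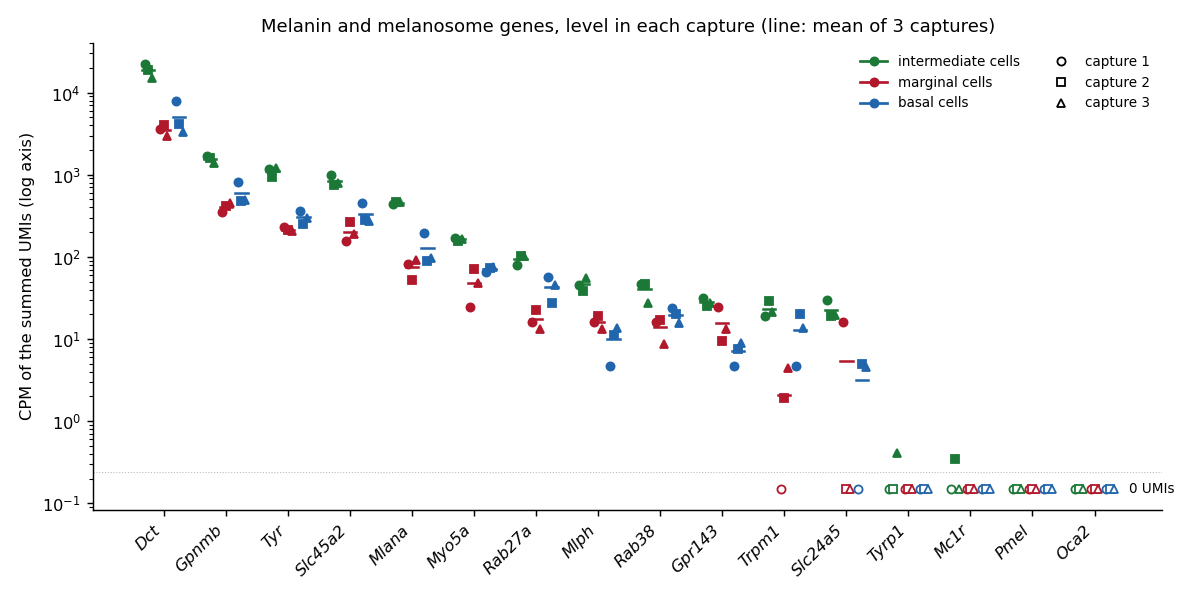
Levels of the 16 melanin and melanosome genes in each capture, in CPM on a log axis, for intermediate (green), marginal (red) and basal (blue) cells, with a line at the mean of 3 captures and open symbols at the bottom for captures with 0 UMIs. The green symbols of Dct, Tyr and Mlana lie above all red and blue ones, and Pmel and Oca2 are at 0 UMIs in every capture and group shown.

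Not every gene of the pathway was detected. Tyrp1, a further enzyme of melanin synthesis, had 1 UMI in all intermediate cells of the 3 captures, and the melanocortin receptor gene Mc1r had 1. Pmel, which forms the fibrils of the melanosome, and Oca2, a melanosomal channel, had 0 of 6445668 UMIs, which allows a level of up to 0.465 CPM (3 UMIs). The exchanger gene Slc24a5 was at 29.6, 18.8 and 19.5 CPM from 135 UMIs, against 2 UMIs in marginal and 6 in basal cells, too few to be tested. In the nuclei, Tyrp1 was at 0.381 and Pmel at 0.762 CPM of intermediate nuclei, where Tyr was at 4154 CPM.

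MITF, the factor that drives melanocyte genes, is known to bind the letters TCATGTG or the shorter CATGTG contained in them. These letters were searched on both strands in the RefSeq promoters of build GRCm38.p6, from 250 bases before to 50 after each start. The listed melanin genes were taken whether or not they could be tested, and printed are promoters of genes that were higher in both comparisons. TCATGTG was present in 3 of the 9 promoters found for 7 of the 11 melanin genes that were higher in both comparisons (33.3%), in 6 of the 13 promoters found for 11 of the 16 listed genes (46.2%), in 26 of 594 promoters of the genes higher in both comparisons (4.38%, 419 of 562 genes matched) and in 1239 of all 32851 promoters (3.77%). For CATGTG the shares were 44.4%, 61.5%, 12.0% and 14.2%. A match is a description of the letters and not of binding. The promoters of Mitf, Kcnj10 and Cd44 held 0 matches. Below, capitals mark TCATGTG or its reverse complement, and all are written 5′ to 3′ on the strand of the gene. Dct (chr14:118052197-118052496, minus strand) held 2 matches, Tyr (chr7:87493463-87493762, minus strand) 1 that began 22 bases before the start, and the potassium channel gene Kcnj13 (chr1:87394680-87394979, minus strand) 1 at 112 bases before it.
Dct: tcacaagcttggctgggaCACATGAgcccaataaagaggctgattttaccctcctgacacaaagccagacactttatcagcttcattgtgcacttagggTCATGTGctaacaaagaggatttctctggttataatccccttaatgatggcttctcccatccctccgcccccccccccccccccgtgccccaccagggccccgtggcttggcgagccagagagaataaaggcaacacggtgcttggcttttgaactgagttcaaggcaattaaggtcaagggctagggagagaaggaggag
Tyr: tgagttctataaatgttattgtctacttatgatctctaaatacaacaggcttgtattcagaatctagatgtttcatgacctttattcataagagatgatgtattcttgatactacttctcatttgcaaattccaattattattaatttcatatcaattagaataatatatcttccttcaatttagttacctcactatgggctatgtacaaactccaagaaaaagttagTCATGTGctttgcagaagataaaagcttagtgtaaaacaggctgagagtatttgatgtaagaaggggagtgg
Kcnj13: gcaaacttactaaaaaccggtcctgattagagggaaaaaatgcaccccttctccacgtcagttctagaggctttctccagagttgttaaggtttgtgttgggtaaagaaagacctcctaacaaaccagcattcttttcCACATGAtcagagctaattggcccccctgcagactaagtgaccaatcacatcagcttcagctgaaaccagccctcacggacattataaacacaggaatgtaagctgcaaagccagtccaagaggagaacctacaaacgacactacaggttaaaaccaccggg

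Of 13 regulators of the neural crest and the melanocyte lineage, 7 were tested, of which Sox5 reached the limit for testing only with barcodes with intermediate RNA and Erbb3 only with marginal cells. Against marginal cells 6 were higher and 1 lower (14.9 and 16.5% over all genes), and against basal cells 4 were higher and 1 lower (16.6 and 17.4%). Ednrb, the endothelin receptor of melanoblasts, was at 697, 669.7 and 619 CPM in captures 1, 2 and 3, against 65.2, 145 and 166 CPM in marginal and 235, 192 and 136 CPM in basal cells. Mitf was at 341, 291 and 313 CPM against 81.5, 128 and 127 CPM in marginal and 113, 129 and 92.8 CPM in basal cells. Both genes were higher in intermediate cells in all 3 captures, with log2 fold changes of 2.62 and 2.08 for Ednrb and 1.71 and 1.67 for Mitf. Sox10, which activates Mitf, was at 370.4, 243 and 249 CPM in intermediate, 163, 211 and 232 CPM in marginal and 127, 67.7 and 74.7 CPM in basal cells. Its fold change was small against marginal cells (0.72 ± 0.17, edgeR adjusted p 0.000475, a call lost without TMM scaling) and larger against basal cells (1.96 ± 0.18, edgeR adjusted p 1.39e-13).

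Zeb2 and Ets1 were higher than in marginal cells and not higher than in basal cells. Zeb2, a zinc finger factor of the neural crest, was at 70.9, 72.6 and 68.1 CPM against 0, 17.0 and 0 CPM in marginal cells (3.12) and 94.1, 120.3 and 129 CPM in basal cells (-0.53, lost in DESeq2, with Malat1 of at least 2% and without capture 2 or capture 3). Ets1 was at 30.5, 38.7 and 29.2 CPM, 1.62 above marginal cells and 0.03 from basal cells, which did not pass the test. Erbb3, the neuregulin receptor of Schwann cell precursors, was at 0.897, 2.09 and 0.406 CPM and lower than in marginal cells (40.7, 24.5 and 43.7 CPM, -4.26). Sox5 was higher in both comparisons (1.27 and 0.87). Both calls were lost in DESeq2 and without capture 2 (1.45 and 0.64). The call against marginal cells was also lost with marginal cells that only had to hold more UMIs of the marginal than of the intermediate selecting genes (0.62), and the call against basal cells without capture 3 (0.69) or without TMM scaling (0.63). DESeq2 called 5 regulators higher than in marginal and 3 higher than in basal cells. The growth factor receptor gene Kit and the factor gene Tfap2b had 1 UMI each in intermediate cells, Snai2 had 3, Tfap2a had 59, and Foxd3 and Lef1 had 0.

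For potassium and sodium transport, 11 of 14 listed genes were tested. Against marginal cells 4 were higher and 5 lower (14.9 and 16.5% over all genes), and against basal cells 7 were higher and 1 lower (16.6 and 17.4%). Kcnj10 (chromosome 1, 172341210 to 172374085, plus strand), the inwardly rectifying potassium channel on which the endocochlear potential depends, was at 2684, 2055 and 2050.0 CPM in captures 1, 2 and 3, against 546, 760.1 and 533 CPM in marginal and 1448, 901 and 656 CPM in basal cells. Kcnj13 (chromosome 1, 87386363 to 87394729, minus strand), a related channel, was at 319, 366 and 288 CPM against 73.3, 30.2 and 35.0 CPM in marginal and 98.8, 65.2 and 45.3 CPM in basal cells. For both channels every intermediate value lay above every other value, and the log2 fold changes were 2.16 and 1.44 for Kcnj10 and 3.44 and 2.55 for Kcnj13. Kcnj13 lies within Gigyf2 on the opposite strand, and reads of the pair cannot be told apart if strand was not used in counting.

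Subunits of the sodium pump were divided between the layers. Atp1b1, a beta subunit, was at 6418, 5993 and 6019 CPM, higher than the 1581, 1654 and 1325 CPM of marginal cells (2.35) and the 2849.8, 1746 and 1673 CPM of basal cells (1.79). Atp1b2, another beta subunit, was at 109, 136 and 111 CPM against 6551, 4689 and 5557 CPM in marginal cells (-5.21). Intermediate and marginal cells did not overlap for either subunit, and the direction was opposite. Atp1b3 was higher than in marginal cells (1.75) and by little than in basal cells (0.46, lost in DESeq2, without TMM scaling and without capture 2 or capture 3).

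Genes of the marginal transport route were lower in intermediate than in marginal cells. Kcne1, a subunit of the channel that releases potassium into the endolymph, was at 94.2, 103 and 73.8 CPM against 2208, 1388 and 1434 CPM in marginal cells (-3.83) and 51.7, 60.2 and 58.8 CPM in basal cells (0.84, lost without capture 2 at 0.71 and with Malat1 of at least 2% at 0.44). Bsnd, a subunit of chloride channels, rested on 11 UMIs in intermediate cells, with -5.24. Slc12a2, the cotransporter of sodium, potassium and chloride, was at 2185, 2189 and 2454 CPM in intermediate cells, 7578, 7665 and 9168 CPM in marginal cells (-1.49) and 1665, 1514 and 1161 CPM in basal cells (0.87). The order marginal, intermediate, basal held for Slc12a2 in all 3 captures. Marginal RNA was lowered in intermediate cells by the selection itself, which set a limit on 4 marginal genes.

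**Figure D2:**
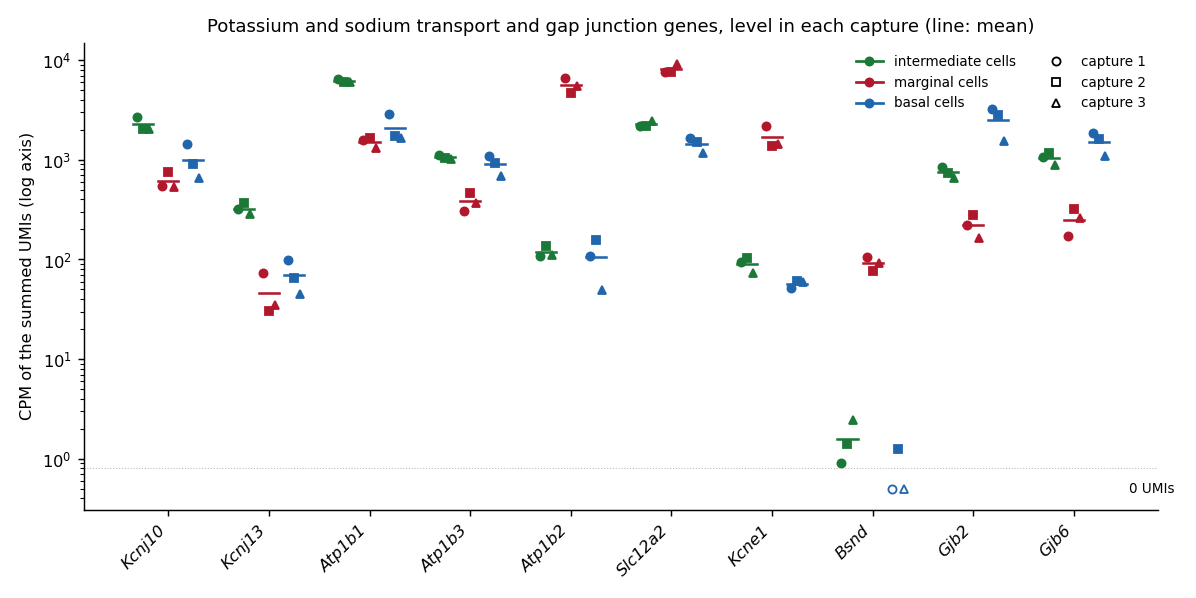
Levels of 10 transport and gap junction genes in each capture, in CPM on a log axis, for intermediate (green), marginal (red) and basal (blue) cells, with a line at the mean of 3 captures and open symbols at the bottom for captures with 0 UMIs. Kcnj10, Kcnj13 and Atp1b1 are highest in intermediate cells, Atp1b2, Slc12a2 and Kcne1 in marginal cells, and Gjb2 in basal cells.

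Of 6 listed gap junction genes, Gjb2 and Gjb6, the connexins of the cochlear lateral wall, were tested. Gjb2 was at 847, 744 and 659.9 CPM in intermediate cells, above the 220.0, 281 and 166 CPM of marginal cells (2.05) and below the 3207, 2801 and 1559 CPM of basal cells (-1.49). Gjb6 was at 1072, 1168 and 888 CPM, 2.31 above marginal cells, and its difference from basal cells (-0.32 ± 0.16 SE, edgeR adjusted p 0.116) did not pass the test. Gja1 had 2 UMIs in intermediate cells, Panx1 had 14, and Gjb1 and Gjc1 had 0.

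Of 14 listed receptors, co-receptors and ligands of guidance and growth factor signalling, 6 were tested, of which Nrp1 reached the limit for testing only with barcodes with intermediate RNA, Hgf only with marginal and Sema3d only with basal cells. Of these, 3 were higher and 1 lower than in marginal cells (14.9 and 16.5% over all genes), and 2 higher and 1 lower than in basal cells (16.6 and 17.4%), so that the lower counts were near the background. Hgf, the ligand of Met, was at 1.79, 1.05 and 1.22 CPM in intermediate cells, from 8 UMIs, and at 57.0, 69.8 and 74.3 CPM in marginal cells (-5.30). Plxna1, a receptor that pairs with neuropilins for semaphorins, was at 171, 152 and 153 CPM, above marginal (1.74) and basal cells (1.19). Nrp1 was at 20.6, 21.6 and 23.9 CPM, higher than in marginal cells, which held 2 UMIs of it, and with -0.21 against basal cells, which did not pass. Among ligands of the neuropilins, Sema3d was lower than in basal cells (-3.01, 19 UMIs), Vegfa differed from neither group past the threshold (-0.32 and -0.32), and Sema3a, Sema3e and Sema3f had 0 UMIs in intermediate cells.

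Over all genes higher in both comparisons and in each capture, with a mean of at least 50 CPM, genes were ranked by the smaller of the 2 fold changes. The gene ranked first was Taf1d (chromosome 9, 15306214 to 15316991, plus strand), a subunit of the factor that starts RNA polymerase I, at 922, 705 and 737 CPM in intermediate, 147, 99.96 and 74.3 CPM in marginal and 132, 85.2 and 86.0 CPM in basal cells. Its log2 fold change was 3.21 ± 0.20 and 3.19 ± 0.19 (SE). It overlaps Cep295 on the opposite strand, so that its reads may be shared if strand was not used. Adm, the vasodilator peptide adrenomedullin, was at 241, 286 and 212 CPM against 32.6, 30.2 and 30.6 CPM in marginal and 94.1, 33.8 and 27.2 CPM in basal cells (3.35 and 2.79). The ranking required both genes to be higher within each capture, and no intermediate value overlapped with the other groups.

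The next genes included Nav2, a cytoskeletal navigator protein, at 171, 167 and 163 CPM (2.45 and 2.51), and Mertk, a receptor for the uptake of dying cells and shed membranes, at 78.9, 60.4 and 76.3 CPM (2.38 and 2.29). Cited1, a transcriptional co-activator, was at 185, 201 and 114 CPM (2.14 and 2.31), and Kcnn4, a potassium channel opened by calcium, at 156, 133 and 164 CPM (2.50 and 2.14). Col5a3, a fibrillar collagen chain, had 2.65 and 2.17. Gsta1, a glutathione transferase, had 2.35 and 2.09, and Wdr91, a protein of endosome maturation, had 2.08 and 2.25. Xaf1 and Lhfpl2 completed the 15, with Kcnj13, Mlana, Dct and Tyr from the lists above.

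The genes ranked lowest included Ocln and Pax2. Ocln, the tight junction protein occludin, was at 3.59, 4.19 and 2.43 CPM in intermediate cells, 106, 81.1 and 65.6 CPM in marginal cells and 75.2, 87.7 and 52.1 CPM in basal cells (-4.14 and -4.13). Pax2, a transcription factor of the developing inner ear, was at 3.59, 2.09 and 2.43 CPM against 114, 94.3 and 91.8 CPM in marginal and 37.6, 40.1 and 13.6 CPM in basal cells (-4.84 and -3.33). Both genes were far lower than in either other group in each capture, as the ranking required. Cxxc5 (-4.59 and -4.66), the magnesium transporter gene Slc41a1 (-3.40 and -3.71), the co-activator gene Cited4 (-4.93 and -3.64), Dpp4, Gna14, Cd24a and Anxa1 followed. Anxa1 lost both calls without capture 2 (-3.61 and -3.31) or capture 3 (-4.27 and -4.12), and basal capture 1 held it at 65.8 CPM.

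**Figure D3:**
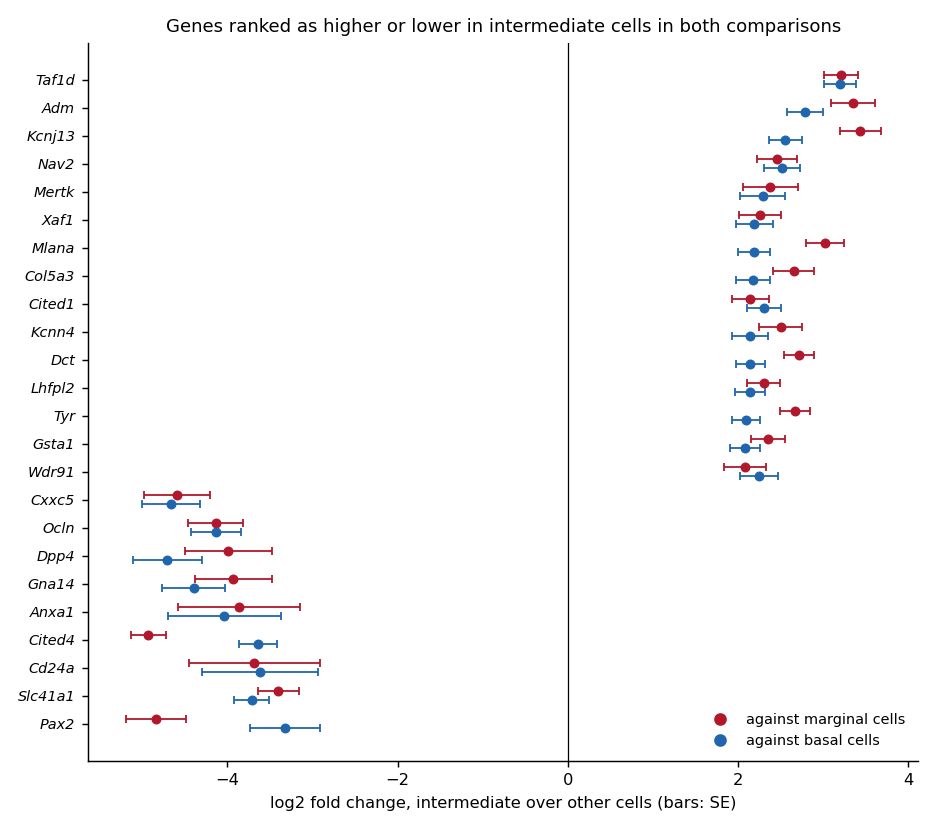
Log2 fold change of intermediate cells over marginal (red) and basal (blue) cells for the 15 genes ranked highest and 9 of those ranked lowest in both comparisons, with bars of 1 SE. Taf1d is above 3 in both comparisons, and Cxxc5 and Ocln are below -4 in both.

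Among 18 redox and metal genes, 6 were higher and 4 lower than in marginal cells, and 8 were higher and 3 lower than in basal cells. The shares over all genes were 14.9 and 16.5%, and 16.6 and 17.4%, so that the lower counts were close to the background. Gsta4, a glutathione transferase for lipid aldehydes, was at 2377, 2539 and 1858 CPM against 375, 554 and 538 CPM in marginal (2.50) and 1035, 886 and 729 CPM in basal cells (1.57). Sod3, the secreted superoxide dismutase (1.92 and 1.58), and Txn1, thioredoxin (1.54 and 0.82), were also higher in both. Ptgds, prostaglandin D synthase, was lower in both, at 7041, 7003 and 5916 CPM against 26384, 20335 and 20207 CPM in marginal and 26499, 20097 and 14849.6 CPM in basal cells (-1.39 and -1.39). Gpx3, a secreted glutathione peroxidase, and the metallothionein gene Mt3 were lower than in marginal cells (-2.44 and -2.46) and higher by little than in basal cells (0.52 and 0.54). These last 2 calls were lost without capture 3 (0.41 and 0.45), without TMM scaling (0.29 and 0.31) and with Malat1 of at least 2% (0.27 and 0.30). The call of Hmox1 against marginal cells was also lost without capture 3 and with the wider choice of marginal cells, that of Mt2 against basal cells without capture 2, without the block and with Malat1 of at least 2%, and that of Sod2 against basal cells in DESeq2, without TMM scaling and when any 1 capture was left out, among other settings.

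For glycolysis and lactate, 15 of 20 listed genes were tested. Against basal cells 12 were higher and 1 lower (16.6 and 17.4% over all genes), and against marginal cells 3 were higher and 5 lower (14.9 and 16.5%), so that intermediate cells lay between the other groups for Pgam1 (-1.10 and 0.68), Pfkl (-0.68 and 0.92) and Ldhb (-0.78 and 0.59). Aldolase, Aldoa, was at 817, 836 and 748 CPM and higher in both (0.97 and 0.91), as was Tpi1 (0.63 and 1.22). Without TMM scaling the calls of Tpi1 and Gpi1 against marginal cells were lost (0.28 and 0.12), and Gpi1 was lost in DESeq2 and without capture 2 (0.57) or capture 3 (0.46) and Pfkm, lower than in marginal cells, without capture 3 (-0.70). Slc2a1, the glucose transporter of the strial barrier, was at 30.5, 21.6 and 23.1 CPM against 150.5, 137 and 56.6 CPM in basal cells (-1.96). Of 12 calls against basal cells, Ldha was lost in DESeq2, without TMM scaling, with Malat1 of at least 2% and without capture 1 or capture 2, Pgk1 without the block and without capture 1 or capture 2, Ldhb without TMM scaling or capture 3, and Hk1 without capture 3.

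Of 21 lysosomal genes, 20 were tested, with 6 higher and 1 lower than in marginal cells (14.9 and 16.5% over all genes) and 8 higher and 1 lower than in basal cells (16.6 and 17.4%). DESeq2 called 4 and 1, and 7 and 1. Ctsb, the protease cathepsin B, was at 1391, 1167 and 1055 CPM against 538, 628 and 551 CPM in marginal and 776, 540.2 and 398 CPM in basal cells (1.37 and 1.32). Cd63, a membrane protein of lysosomes and melanosomes, was at 800.1, 771 and 531 CPM against 309.6, 321 and 267 CPM in marginal and 484, 445 and 398 CPM in basal cells (1.54 and 0.86). In each capture both genes were highest in intermediate cells. Lamp2 (0.88 and 0.75) was also higher in both. Psap, the precursor of saposins, lay between marginal (-0.57) and basal cells (0.85). Without capture 2 the calls of Hexa, Grn and Psap against marginal cells and of Grn and Scarb2 against basal cells were lost, and without capture 3 that of Ctsl against basal cells. DESeq2 did not call Hexa against marginal and Grn against basal cells, and without TMM scaling these and Scarb2 against basal cells were lost.

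Mitochondrial RNA was abundant in intermediate cells. It took a median of 29.5, 32.8 and 35.2% of the UMIs of an intermediate cell in captures 1, 2 and 3, with 10th to 90th percentiles of 7.94 to 44.4, 9.67 to 49.2 and 12.7 to 49.3%. The medians were 15.8, 25.9 and 21.6% in marginal and 20.0, 17.9 and 19.1% in basal cells. All 13 genes of the mitochondrial genome were higher than in marginal and in basal cells, with a median log2 fold change of 1.00 and 0.82, where 14.9 and 16.6% of all genes were higher. For example, mt-Atp6, a subunit of ATP synthase, was at 64303, 74793 and 80847 CPM against 36683, 56023 and 48419 CPM in marginal and 44326, 46907 and 49472 CPM in basal cells. DESeq2 called 12 of the 13 in each comparison, and mt-Nd6 was the gene it left out, whose calls were also lost without TMM scaling (0.49 and 0.32), without capture 2 against marginal cells (0.79) and, against basal cells, without the block, without capture 1 (0.41) or capture 3 (0.40) and with basal cells that held at least 3 times as many UMIs of the basal as of the intermediate selecting genes. The call of mt-Nd4l against basal cells was lost without the block (0.75). In the nuclei, of which intermediate nuclei had a median of 1.80% mitochondrial RNA and marginal nuclei 2.06%, 5 of the 13 genes were higher in intermediate than in marginal nuclei and 0 of 13 higher than in basal nuclei, which had 9.81%.

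**Figure D4:**
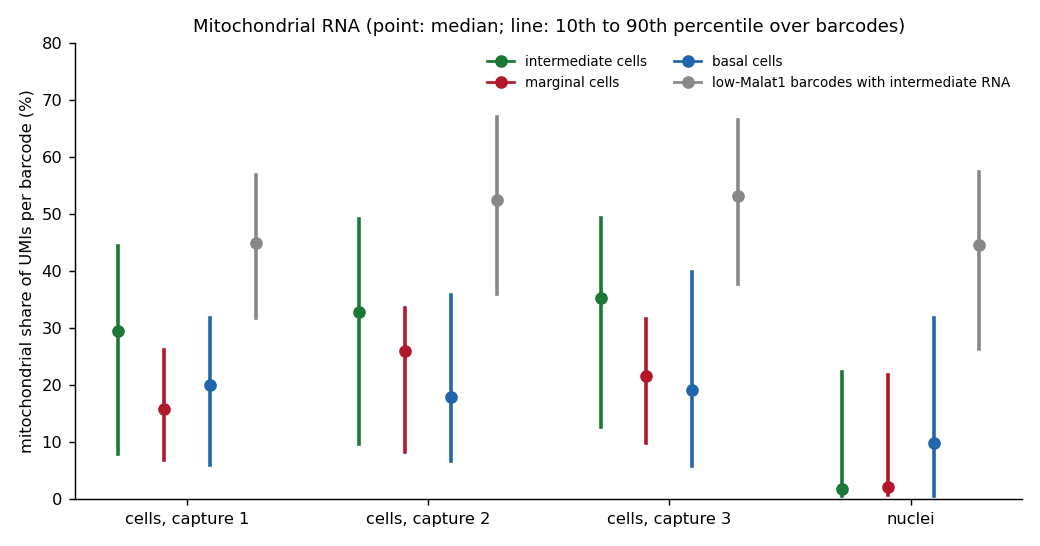
Mitochondrial share of UMIs per barcode, in %, for intermediate (green), marginal (red) and basal (blue) barcodes and for barcodes with intermediate RNA and under 1% Malat1 (grey), in the 3 cell captures and the nuclei, with the median as a point and the 10th to 90th percentile as a line. Within each cell capture the grey medians are highest, followed by the intermediate cells at 29.5, 32.8 and 35.2%.

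A further 205 barcodes met every limit for intermediate cells except that Malat1 was under 1% of UMIs, 43, 83 and 79 in captures 1, 2 and 3. They were compared with intermediate cells to ask which transcripts go with nuclear RNA. Their median mitochondrial share was 44.9, 52.4 and 53.1%. Of 6666 genes, 170 (2.55%) were higher and 120 (1.8%) lower in intermediate cells. Of the 13 mitochondrial genes, 12 were lower in intermediate cells, with a list median of -0.79, although mt-Atp8 lost its call without TMM scaling, without the block, with other limits and when any 1 capture was left out and mt-Nd4l and mt-Nd5 without capture 2 (-0.77 and -0.72). Without the block mt-Nd4l also lost its call (-0.84). The sum of the 13 was 343728 ± 24166 CPM in intermediate cells and 491907 ± 38935 CPM (SD, n = 3) in these barcodes.

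Of 7 listed nuclear RNAs, 4 were tested, and 2 were higher in intermediate cells than in the low-Malat1 barcodes (2.55% over all genes), groups that were split on the nuclear RNA Malat1. Kcnq1ot1, an antisense transcript of the imprinted Kcnq1 locus that stays in the nucleus, was at 99.56, 105 and 91.7 CPM against 23.0, 15.4 and 20.5 CPM (2.07 ± 0.25 SE, edgeR adjusted p 1.13e-07). Neat1, the RNA of nuclear paraspeckles, was at 594, 557 and 500.1 CPM against 305, 135 and 157 CPM (1.27). Meg3 and Xist did not pass. Against basal cells Neat1 (-0.86), Kcnq1ot1 (-1.16) and Meg3 (2 UMIs) were lower (17.4% over all genes). Meg3 reached the limit for testing only with basal cells, and DESeq2 did not call it. Against marginal cells Neat1 was higher (14.9% over all genes), at 0.47, a call lost in DESeq2, without TMM scaling (0.11), without the block, with Malat1 of at least 2% and without capture 2 (0.36). Kcnq1ot1 overlaps Kcnq1, a gene of the marginal limit, on the opposite strand. Taf1d (1.66), Nav2 (1.28), Adm (0.92), Kcnj13 (0.79) and Sox10 (0.79) were also higher, of which DESeq2 did not call Adm and Kcnj13. Of the 11 melanin genes 0 passed, where 2.55% of all genes were higher and 1.8% lower, so that the count was near the background. At an unadjusted p under 0.05 in edgeR 3 were higher and 1 lower, and DESeq2 called 0. Dct was at 14019, 9601 and 8553 CPM in the low-Malat1 barcodes (0.52 ± 0.16 SE, edgeR adjusted p 0.0533), and Kcnj10 at 2159.9, 1756 and 1702 CPM (-0.02 ± 0.17 SE).

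The genes ranked highest against the low-Malat1 barcodes were Kcnq1ot1, the poly(A)-binding protein gene Pabpn1 (1.79), BC005561 (1.68), Taf1d, Gm6483 (1.63), PISD (1.51), Gpatch8 (1.50) and Ttc14 (1.49). Those lower in intermediate cells were Trak2, which links mitochondria to motors (-1.09), Padi2 (-1.08), Wwc1, Igf1, Prom2, Tuba1c, Plce1 and Gpx3 (-0.94). Of these, Igf1, a growth factor, was at 96.9, 133 and 125 CPM in intermediate and 2330.4, 2169 and 2746 CPM in marginal cells. The part of marginal RNA in the comparison with the low-Malat1 barcodes was not tested. Among the lists, Cd63 was also higher (0.56, lost without the block and without capture 1 or capture 2) and Kcne1 (-0.77, lost in DESeq2, without TMM scaling, with a limit of 0.12% and without capture 2 or capture 3), Mt3 (-0.92) and Pgam1 (lost without TMM scaling, without the block and when any 1 capture was left out) lower. BC005561 (1.24) and Tuba1c (-0.77) lost their calls without capture 2, and Padi2 (-0.92) and Plce1 (-0.71) without capture 3. The counts of calls depended on the captures, with 41 higher and 28 lower without capture 2 and 71 and 46 without capture 3. DESeq2 called 39 and 54, and without TMM scaling, which moved the median by -0.30, 913 were higher and 37 lower.

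Immediate-early and heat shock genes, which can be induced when tissue is dissociated, were not higher as lists in intermediate cells. Of 16 immediate-early genes, 10 were tested, with 1 higher and 4 lower than in marginal cells (14.9 and 16.5% over all genes) and 1 higher and 8 lower than in basal cells (16.6 and 17.4%). DESeq2 called 0 and 4, and 1 and 5. Their summed level was 451 ± 47.8 CPM in intermediate, 892 ± 191 CPM in marginal and 1473 ± 338 CPM (SD, n = 3) in basal cells. Klf4, a factor of epithelial differentiation, was at 17.0, 10.8 and 11.4 CPM against 578, 439 and 330.4 CPM in basal cells (-4.89), and Jund at 232, 226 and 171 CPM against 619, 321 and 402 CPM in marginal and 611, 531 and 401 CPM in basal cells (-0.66 and -1.08). Fos had 28 UMIs in all intermediate cells. Egr1 had 3, and its call against marginal cells was lost without capture 1 or capture 3. Klf6, the gene that was higher, had 0.59 and 0.67 and lost both calls without TMM scaling (0.25 and 0.44) and without capture 2 (0.49 and 0.72), and that against marginal cells also in DESeq2, without the block and without capture 3 (0.62). Against basal cells the calls of Ier2 were lost without capture 2 or capture 3 and those of Jun and Junb without capture 3, and DESeq2 called none of these 3. Btg2, Egr1 and Klf4 reached the limit for testing only with basal cells.

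Of 11 heat shock genes, 10 were tested, of which 6 were lower than in marginal cells (16.5% over all genes) and 4 lower than in basal cells (17.4%). Hspb1, a small heat shock protein, was at 23.3, 13.6 and 8.11 CPM against 139, 86.8 and 127 CPM in marginal and 498, 396 and 301 CPM in basal cells (-2.66 and -4.61). Hsp90ab1, a constitutive chaperone, was at 405, 424 and 366 CPM against 888, 790.2 and 752 CPM in marginal and 814, 781 and 706 CPM in basal cells (-0.67 and -0.74). Neither gene overlapped between intermediate cells and the other groups. Without capture 3 the calls of Hspa8 and Hsph1 against marginal cells were lost, and without capture 2 or capture 3 that of Hspa1b against basal cells, which DESeq2 did not call. Hspa1b reached the limit for testing only with marginal cells and Dnajb1 only with basal cells. Of 7 genes of antigen presentation, 3 were tested. B2m, the light chain of class I molecules, was at 899, 950.3 and 709 CPM and higher in both comparisons (0.72 and 0.98, the former lost without TMM scaling), H2-K1 was lower than in marginal cells (-1.05), and H2-D1 differed from neither past the threshold. The class II genes H2-Aa, H2-Ab1 and H2-Eb1 had 0 UMIs in intermediate cells, and Cd74 had 2.

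Markers of other cell types were counted in the same cells. The 9 marginal markers summed to 2302, 2316 and 2542 CPM in intermediate cells of captures 1, 2 and 3, of which Slc12a2 was the most abundant, against 10464 CPM in marginal cells, and Kcne2 was at 0 in intermediate cells. The 8 basal markers summed to 881, 767 and 687 CPM, nearly all from Gjb2, against 2962 CPM in basal cells. Of the 6 basal markers tested, Ebf2, Fbln1, Igfbp2 and Sox8 reached the limit for testing only with basal cells, and of the 7 marginal markers tested, Abcg1, Bsnd, Heyl, Stac and Tacr3 only with marginal cells, so that lower values of these in intermediate cells followed from the limit. Igfbp2 was at 0.897, 0.698 and 0.811 CPM against 51.7, 163 and 224 CPM in basal cells. The other 2 markers of each list were lower than in basal and in marginal cells (17.4 and 16.5% over all genes). Of the Schwann cell genes, Pmp22, a myelin protein also made outside nerve, was at 268, 208 and 228 CPM and higher in both comparisons (2.41 and 0.78), Mbp was lower than in marginal cells (-2.10), and Prx, a marker of myelinating Schwann cells, had 5 UMIs.

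Summed levels in intermediate cells were 7.30 ± 0.792 CPM for 8 macrophage genes, 5.30 ± 2.46 CPM for 5 endothelial genes, 27.7 ± 0.767 CPM for 6 fibrocyte genes, 22.4 ± 2.39 CPM for 6 spindle and root cell genes and 4.86 ± 2.28 CPM for 7 genes of cell division (SD, n = 3). Neutrophil genes were at 2.69, 3.84 and 46.2 CPM, pericyte genes at 0, 0.349 and 15.4 CPM and B cell genes at 8.07, 2.79 and 10.1 CPM in captures 1, 2 and 3. Ebf1, a factor of B cells, and Car3, a carbonic anhydrase, were lower than in basal cells (-6.49 and -5.13, the latter lost without capture 3). Ebf1 reached the limit for testing only with basal cells, and Car3 only with marginal and basal cells together. Of the macrophage, neutrophil, endothelial, pericyte and cell division genes, none had enough UMIs for a test. Erythroid genes were at 181, 305 and 3791 CPM, so that capture 3 was far above the others. Of these genes, Hba-a2 reached the limit for testing only with barcodes with intermediate RNA. The hemoglobin genes Hba-a1, Hba-a2 and Hbb-bs were higher than in both other groups and Hbb-bt than in basal cells, and Hba-a1 lost both calls without capture 3 (0.12 and 0.26), as did Hbb-bs against basal cells (0.23). All these calls were lost without the capture as a block and with Malat1 of at least 2%, and DESeq2 called 0 of the 4 genes tested against basal cells and 2 against marginal cells.

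Variation between cells of a capture was measured as the ratio of variance to mean, which rises with the mean and so ranks abundant genes first. Over 331 genes, each cell thinned to 2000 UMIs, this ratio had a median of 1.16. The 10 highest values were those of Malat1 (131), mt-Co1 (28.9), mt-Atp6 (27.3), mt-Co3 (22.2), mt-Co2 (16.9), Fth1 (16.5), Dct (15.5), mt-Cytb (12.7), mt-Nd1 (12.4) and mt-Nd4 (10.2). Malat1 entered the selection only through its lower limit. Fth1, the heavy chain of the iron store ferritin, was at 34123, 24003 and 27893 CPM, 1.71 above marginal and 1.30 above basal cells.

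Dct was present throughout the group and uneven in amount. In single intermediate cells the 10th percentile, median and 90th percentile of Dct were 12335, 23634 and 45915 CPM in capture 1, 9701, 17693 and 41061 CPM in capture 2, and 7174, 14404 and 33696 CPM in capture 3. After thinning to 2000 UMIs, which left 118, 407 and 363 cells, 100% of cells in each capture had a UMI of Dct, and 97.5, 96.1 and 93.4% had a UMI of Kcnj10. Cd44 was seen in 51.7, 52.1 and 48.5% (83.9, 81.0 and 80.5% unthinned) and Kcnj13 in 43.2, 47.2 and 40.8% (76.3, 76.6 and 68.3% unthinned), shares that these low UMI numbers limit. In hemoglobin-rich barcodes of captures 2 and 3, thinned alike, 30.8 and 26.2% had a UMI of Dct (76.9 and 70.0% unthinned). Cd44 and Kcnj13 were seen in 0 of 13 and 0 of 84 thinned barcodes, which at that depth allow shares of up to 23.1 and 3.57%. Unthinned, the shares were 0 and 4.44% for Cd44 and 15.4 and 3.33% for Kcnj13.

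**Figure D5:**
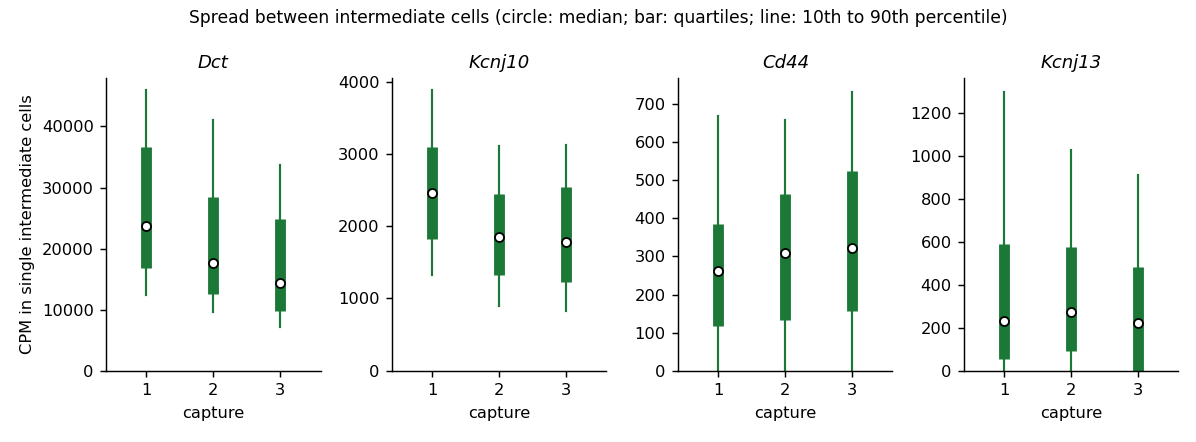
Level of Dct, Kcnj10, Cd44 and Kcnj13 in single intermediate cells of each capture, in CPM, with the median as a circle, the quartiles as a bar and the 10th to 90th percentile as a line. The median of Dct is 23634 CPM in capture 1 and 14404 CPM in capture 3, and the lines of the captures overlap.

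Between captures, the summed profile of intermediate cells varied little. Of 1114 genes with at least 100 CPM in a capture, 23 (2.06%) differed by 2-fold or more between the highest and the lowest capture, and the median ratio was 1.19. The 4 most variable genes encode hemoglobin and were highest in capture 3, led by Hba-a2 at 4.48, 10.8 and 186 CPM (41.5-fold) and followed by Hbb-bt (26.6-fold), Hba-a1 (25.6-fold) and Hbb-bs (17.3-fold). The next 6, Gm10076, Rpl10-ps3, Gm10116, Gstp1, Gm10073 and Gm2000, were highest in capture 1 and lowest in capture 2, at 3.12 to 5.10-fold. Rpl10-ps3 is by its name a pseudogene of a ribosomal protein, and between near-identical copies reads may be split. Gm10076 showed the same order in marginal (864, 166 and 297 CPM) and basal cells (903, 223 and 419 CPM).

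The nuclei, selected by the same limits, gave a separate library in which the directions could be compared, without a test since there was 1 capture. The same genes selected cells and nuclei, so genes that go with them were bound to differ in both, and the shares are a description. Of 11057 barcodes, 1378 were intermediate, 3317 marginal and 119 basal nuclei, and intermediate nuclei held 2625923 UMIs. Among genes higher than in marginal cells, 891 of 974 with enough UMIs (91.5%) were also higher in intermediate than in marginal nuclei, and among those lower 1058 of 1073 (98.6%) were lower, while 36.7% of all genes with a value were higher. Against basal nuclei the shares were 709 of 837 (84.7%) and 908 of 974 (93.2%), while 44.8% of all genes were higher. Levels in the nuclei were not scaled by TMM.

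The melanin and channel genes named here were highest in intermediate nuclei. Tyr was at 4154 (4076 to 4233) CPM (exact 95% Poisson interval, counting error only) in intermediate, 105 CPM in marginal and 62.2 CPM in basal nuclei. Dct was at 24568, 1758 and 2369.8 CPM, Kcnj13 at 591, 38.9 and 57.8 CPM, and Taf1d at 1565, 82.0 and 31.1 CPM. Between marginal and basal nuclei Tyr had the reverse order of that in cells. Kcnj10 (823, 156 and 231 CPM) and Ednrb (399, 26.0 and 48.9 CPM) were also highest in intermediate nuclei. Zeb2 was at 387 (364 to 412) CPM in intermediate and 378 (302 to 467) CPM in basal nuclei. Kcne1 was at 214 (197 to 233) and 231 (173 to 303) CPM. For neither gene were the intervals apart, and the order was the reverse of that between intermediate and basal cells.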

How the data were processed

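The authors deposited UMI counts, with genes and barcodes listed, for 3 captures of SV cells and 1 of SV nuclei. The submitters' processing notes name Cell Ranger 2.0.0 and the mm10 build. The study's methods give default settings and the mm10 reference that 10x Genomics distributes, whose annotation release was not given in the sources used here. The tables list 27998 genes for cells and 48816 for nuclei, with 27873 in both.

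Barcodes were selected by the limits stated above, and marginal and basal barcodes by the mirrored limits. The members, gene lists and tests were chosen with earlier results of these data known. UMI counts were summed per capture and group and tested over 6666 genes in edgeR 4.0.16 (R 4.3.3) by quasi-likelihood fits with TMM scaling and Benjamini-Hochberg adjustment, with the capture as a block, since sums from a capture share a suspension. Deviations of such sums correlated at -0.000508 to 0.309 over 18 pairs and 4093 genes. The 13 selecting genes were left out of every test. Simulated data were used to check the fit. Other work used Python 3.11.15, numpy 2.4.6, pandas 2.3.3, scipy 1.17.1 and scanpy 1.11.5.

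Named genes were the members of the lists of melanin, regulator, transport, gap junction, receptor, redox, glycolysis, lysosome, mitochondrial, immediate-early, heat shock, antigen presentation, nuclear RNA, cell division and other-cell genes. To these were added the 15 highest and 10 lowest in both comparisons, ranked by the smaller fold change, with no overlap within any capture, a mean of at least 50 CPM where high and at least 10 UMIs where low, the 8 largest in each direction against the low-Malat1 barcodes, and the 10 most variable between cells and between captures. Positions are those of GENCODE for mm10, and promoters those of RefSeq. Alternatives were DESeq2 1.42.0, other scaling and filters, fits without the block or without each capture, other limits and removal of Scrublet doublets. Some listed genes are not reported here, and remain in the counts over lists. No column of another series was present.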

Additional observations from a re-analysis of the deposited data

Results flagged for a closer look

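For 19 named results the direction in whole cells was opposite to that in the nuclei, in which the counting intervals of both groups were apart. There is 1 library of nuclei and its values were not scaled by TMM, so the difference between cells and nuclei was not tested.

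Against marginal cells these were 2 hemoglobin and 5 mitochondrial genes. The log2 fold change in cells was 0.94 for Hbb-bs, 2.24 for Hba-a2, 1.02 for mt-Nd1, 0.99 for mt-Nd2, 1.00 for mt-Atp6, 1.06 for mt-Nd4 and 1.06 for mt-Cytb, and in the nuclei each lay between -0.09 and -0.06.

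Against basal cells there were 12. The log2 fold changes in cells were 0.50 for Igf1, 0.97 for Hba-a2, 0.52 for Gpx3, 0.76 for mt-Nd1, 0.81 for mt-Nd2, 0.89 for mt-Co1, 0.83 for mt-Co2, 0.84 for mt-Atp6, 0.92 for mt-Co3, 0.88 for mt-Nd4, 0.77 for mt-Nd5 and 0.82 for mt-Cytb, and in the nuclei they lay between -0.66 and -0.34. In cells, the call of Igf1 was lost in DESeq2, with DESeq2 size factors in edgeR, without TMM scaling (0.27), without the block, with Scrublet doublets removed (0.46), with a limit of 0.12%, with Malat1 of at least 2% and without capture 2 or capture 3. That of Hba-a2 against basal cells was lost in DESeq2, without the block and with Malat1 of at least 2%, and that of Gpx3 without TMM scaling, with Malat1 of at least 2% and without capture 3. Against marginal cells the calls of Hba-a2 and Hbb-bs were lost without the block and with Malat1 of at least 2%. Hba-a2 reached the limit for testing only with barcodes with intermediate RNA.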

How the results depend on the processing

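Of 312 calls of named genes, 224 were kept under every alternative tried and 239 under every one other than leaving out a capture. Over 4267 values, 253 no longer passed and 2 changed sign, both for Hba-a2 with Malat1 of at least 2%, at -0.28 against basal cells and -1.81 against the low-Malat1 barcodes; their cause was not tested. Without TMM scaling 615 genes were higher and 2033 lower than in marginal cells, 700 higher than in basal cells, 913 higher and 37 lower than in the low-Malat1 barcodes, and 366 higher and 704 lower in both comparisons. DESeq2 called 688 higher than in basal cells, and 39 higher and 54 lower than in the low-Malat1 barcodes. Against the latter, a limit of 0.12% gave 56 and 40, and Malat1 of at least 2% gave 284 and 324. Shares of intermediate cells became 23.3, 26.8 and 19.6% with Malat1 of at least 2%, and 23.1% in capture 3 with a limit of 0.12%. The median level of 131 listed genes was 100.3 CPM, and 152 CPM with mitochondrial genes left out of the totals. The variance over mean of Dct was 8.44 at 1000 UMIs.

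Leaving out 1 capture at a time gave 686 to 1006 genes higher and 769 to 1023 lower than in marginal cells, 660 to 1094 and 765 to 1224 against basal cells, 41 to 143 and 28 to 92 against the low-Malat1 barcodes, 359 to 561 and 163 to 313 in both comparisons, and a median level of 99.4 to 106 CPM. The lowest counts against basal cells, against the low-Malat1 barcodes and in both comparisons came without capture 2. With no replicate block, the pairing of sums by capture left unused, 939 and 1066 genes were called against marginal cells, 1021 and 1095 against basal cells and 124 and 91 against the low-Malat1 barcodes. No paired analysis was possible because of the single nucleus capture where cells were set beside nuclei. Capture 1 held 10 marginal and 16 basal cells, which limits its precision for rare transcripts.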

Other observations

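Transcripts of the sex chromosomes differed between cells and nuclei, which came from pools of several mice. In intermediate cells of captures 1, 2 and 3 Xist, the RNA that coats the inactive X chromosome, was at 261, 548 and 613 CPM, and in intermediate nuclei at 3.05 CPM from 8 UMIs. The Y-linked genes had the reverse order. Ddx3y was at 49.3, 38.4 and 32.9 CPM in cells and 129.9 CPM in nuclei, and Uty at 20.6, 11.2 and 9.33 CPM in cells and 150.04 CPM in nuclei. Eif2s3y was at 43.1, 29.0 and 17.8 CPM in cells and 99.8 CPM in nuclei, and Kdm5d at 10.8, 6.98 and 8.11 CPM in cells and 26.7 CPM in nuclei.

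Some abundant genes of intermediate cells were nearly without counts in the nuclei. Gapdh, a glycolytic enzyme, was at 538 ± 81.4 CPM (SD, n = 3) in cells and 5.33 CPM in nuclei, from 14 UMIs. Ctsd, the lysosomal protease cathepsin D, was at 523 ± 76.7 CPM in cells and 0.381 CPM in nuclei, from 1 UMI. Of the mitochondrial genes, mt-Co1 was at 54247 CPM in cells and 1130 CPM in nuclei, and mt-Nd3 at 6322 and 26.7 CPM. Cells and nuclei were counted over different gene lists, and the part of read counting in these values was not tested.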
